A study of Homo sapiens with 12 samples.

Results

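The 6 genes ID1, ID2, ID3, TCF3, TCF4 and TCF12 were followed by gene symbol through mRNA-seq of NB4 and Kasumi-1 cells. They are 3 ID genes and 3 E protein genes, and all 6 were present among the 20003 genes used. NB4 cells are human acute promyelocytic leukemia cells that carry PML-RARα, and Kasumi-1 cells are human acute myeloid leukemia cells that carry AML1-ETO. In each line, 3 control samples received DMSO and 3 samples received 1 μM OGP46, a diterpenoid made from oridonin, and the labels give 48 h of incubation for all 12 samples, as do the study's methods, while a figure legend of the study gives a longer time. Each condition is 1 established line. The study describes its experiments as repeated, and the legend of its sequencing figure refers to 3 independent experiments. Neither it nor the labels say outright that the 3 samples of a group come from separate cultures. The p-values therefore measure the spread between these samples, which may be technical.

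ID proteins are helix-loop-helix proteins without a DNA-binding region. They pair with E proteins, which are basic helix-loop-helix factors that bind E-box sequences, and the pairs no longer bind DNA. In blood, E proteins drive lymphoid genes and, with partners such as TAL1, progenitor genes, while ID proteins rise and fall along several myeloid and lymphoid routes. E proteins are also bound by the ETO portion of AML1-ETO.

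The deposited unit was FPKM, that is, fragments scaled by transcript length and by the mapped total of the sample, so levels are per length and can be set side by side between genes. Per sample, FPKM over all genes added up to 248207 at the lowest and 310262 at the highest. The sequencing depth behind the values is unknown, so precision rests on the 3 samples of a group. The markers RUNX1T1, POU4F1, TRH, CD34 and KIT summed to 263 to 299 FPKM in the Kasumi-1 controls and to 0.563 to 3.6 FPKM in the NB4 controls. The granule genes MPO, ELANE, PRTN3, AZU1 and CTSG, chosen as promyelocyte markers of NB4, were all called higher in the Kasumi-1 controls, with sums of 9612 to 11917 FPKM against 2605 to 3945 FPKM, so they did not set NB4 apart. Markers of plasmacytoid dendritic and erythroid cells were all below a mean of 0.1 FPKM in each group. Of the T cell markers, CD3D was at 16.7 ± 3.51 FPKM (SD, n = 3) in the NB4 controls and the others were below 0.1 FPKM.

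In GENCODE release 29 on GRCh38, the build that the submitters' processing notes call hg38, ID1 is a short gene at chr20:31605283-31606515 on the plus strand. ID2 lies at chr2:8678845-8684453 on the plus strand, and the antisense gene ID2-AS1 overlaps it. ID3 lies at chr1:23557918-23559794 on the minus strand. The E protein genes are longer. TCF3, which encodes E12 and E47, lies at chr19:1609290-1652605 on the minus strand. TCF12, which encodes HEB, lies at chr15:56918623-57299281 on the plus strand, and TCF4, which encodes E2-2, at chr18:55222331-55664787 on the minus strand with 2 antisense genes inside it. The library kit was stranded, but the use of strand in quantification is not given in the sources used here, so reads of ID2 or TCF4 and of their antisense genes may not have been told apart.

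The promoter of ID1 is shown because ID1 and ID3 differed most between the lines, and the window of ID3 lies within annotated exons. The RefSeq sequence (GRCh38.p14) at chr20:31605039-31605282 on the plus strand ends where the first annotated exon begins, and capitals mark every match to the motifs searched.
ID1 promoter: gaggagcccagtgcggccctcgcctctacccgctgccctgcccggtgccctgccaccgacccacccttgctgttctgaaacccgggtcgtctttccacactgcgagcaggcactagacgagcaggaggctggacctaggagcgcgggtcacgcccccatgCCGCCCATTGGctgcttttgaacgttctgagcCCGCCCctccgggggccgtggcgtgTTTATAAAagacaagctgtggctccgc
The motifs were CANNTG (the E-box), TATAAA (the TATA box), CCAAT (the CCAAT box) and GGGCGG (the GC box), each on both strands, in the 250 bases before a RefSeq start. TATAAA matched the ID1 promoter on both strands in 2 overlapping places, the first at 33 bases before the start, and 10.7% of 35114 promoters held at least 1 match. CCAAT matched once, next to the first of 2 matches to GGGCGG, and these motifs were found in 32.0% and 42.6% of promoters. CANNTG, found in 61.8% of promoters, did not match in the ID1, ID3 or TCF3 window and matched once in that of ID2. A match is a description of the letters only.

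The levels of the ID genes separated the lines. In NB4 controls, ID1 was at 0.177, 0.272 and 0.812 FPKM in samples 1, 2 and 3. In NB4 with OGP46, ID1 was at 0.219 and 0.366 FPKM in samples 1 and 2 and was listed at 0 in sample 3. In Kasumi-1 controls, ID1 was at 20.3, 23.9 and 22.4 FPKM, and with OGP46 it was at 30.2, 32.8 and 32.8 FPKM. All 6 Kasumi-1 samples were far above all 6 NB4 samples, and within Kasumi-1 every OGP46 sample was above every control.

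ID3, a close relative of ID1, was likewise near 0 in NB4 and clearly present in Kasumi-1, at lower levels. It was at 0.0838, 0 and 0.193 FPKM in the NB4 controls and at 0.0811, 0.128 and 0.0891 FPKM in NB4 with OGP46. It was at 8.84, 8.27 and 6.47 FPKM in the Kasumi-1 controls and at 11.6, 11.9 and 12.0 FPKM in Kasumi-1 with OGP46. The NB4 groups overlapped near 0, and the Kasumi-1 groups did not overlap.

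ID2, which besides E proteins can bind members of the RB family, was the only ID gene above 1 FPKM in NB4. It was at 5.39, 6.43 and 4.24 FPKM in the NB4 controls and at 12.5, 17.0 and 8.14 FPKM with OGP46. It was at 6.38, 7.56 and 11.1 FPKM in the Kasumi-1 controls and at 8.60, 7.75 and 14.9 FPKM with OGP46. In NB4, the lowest OGP46 sample was above the highest control, whereas in Kasumi-1 the groups overlapped and sample 3 was the highest of both. ID4, the remaining family gene, was listed at 0 in all 12 samples.

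Of the E protein genes, TCF3 had the highest level. It was at 8.20, 8.38 and 8.67 FPKM in the NB4 controls and at 8.98, 8.76 and 9.40 FPKM in NB4 with OGP46. It was at 16.1, 17.1 and 17.3 FPKM in the Kasumi-1 controls and at 15.9, 15.7 and 16.9 FPKM with OGP46. The values of a line lay close together, and the lines did not overlap.

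TCF12 was also higher in Kasumi-1 than in NB4. It was at 6.39, 5.66 and 5.54 FPKM in the NB4 controls and at 6.73, 7.53 and 7.48 FPKM with OGP46. It was at 10.5, 11.0 and 10.8 FPKM in the Kasumi-1 controls and at 11.3, 11.2 and 11.3 FPKM with OGP46. In each line the OGP46 samples lay above the controls, by less than the distance between the lines.

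TCF4, the E protein gene known for its role in plasmacytoid dendritic cells, was barely detected. It was at 0.109, 0.171 and 0.180 FPKM in the NB4 controls and at 0.136, 0.161 and 0.180 FPKM with OGP46. In Kasumi-1 it was at 0.00870 FPKM in control 2 and 0.00440 FPKM in OGP46 sample 1 and was listed at 0 in the other 4 samples. Among the controls, it is the only gene of the 6 that was higher in NB4. TCF7L2, an HMG-box gene that is also called TCF4 in work on Wnt signalling and is no E protein, was at 0.583 ± 0.185 FPKM in the NB4 controls and at 2.24 ± 0.217 FPKM in the Kasumi-1 controls (SD, n = 3), the opposite order (log2 difference 1.81, adjusted p = 3.53e-05). It was not called with OGP46 in either line.

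**Figure D1:**
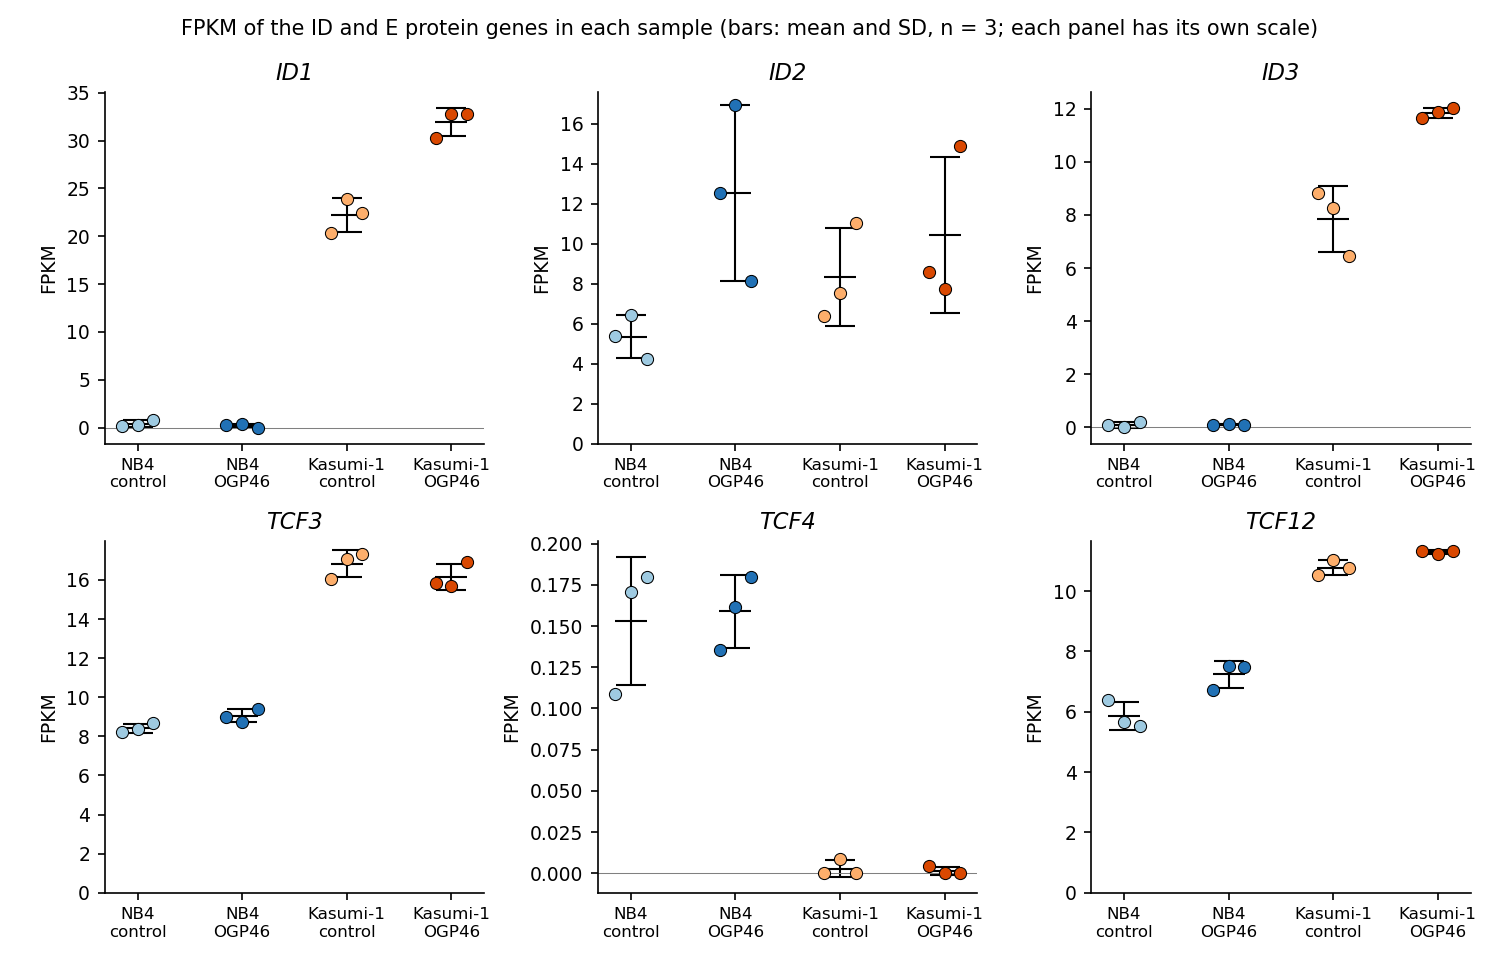
FPKM (linear axes, a separate scale per gene) of the 6 genes in the 4 groups, with a point for each sample and bars for mean and SD (n = 3). ID1 and ID3 lie near 0 in NB4 and at 6.47 FPKM or more in Kasumi-1, while the OGP46 samples of NB4 reach 8.14 to 17.0 FPKM for ID2.

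The mean levels put ID1 first in Kasumi-1 and TCF3 first in the NB4 controls. In Kasumi-1 controls, the order was ID1 (22.2 FPKM), TCF3 (16.8 FPKM), TCF12 (10.8 FPKM), ID2 (8.33 FPKM), ID3 (7.86 FPKM) and TCF4, and the sample values of ID2 overlapped with those of ID3 and TCF12. In NB4 controls, the order was TCF3 (8.42 FPKM), TCF12 (5.86 FPKM), ID2 (5.36 FPKM) and then ID1, TCF4 and ID3, and the values of TCF12 and ID2 overlapped, as did those of the last 3. In NB4 with OGP46, ID2 had the highest mean, 12.5 FPKM, but its values overlapped with those of TCF3. ID1 ranked 1944th of 20003 genes by mean FPKM in the Kasumi-1 controls and 10425th in the NB4 controls.

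The make-up of the ID transcripts also differed between the lines. ID2 gave 80.9% to 95.9% of the summed ID FPKM in the NB4 controls and 97.2% to 98.9% in NB4 with OGP46. In the Kasumi-1 controls, ID1 gave 56.1% to 60.2%, ID2 17.9% to 27.7% and ID3 16.2% to 24.9%. Of the E protein transcripts, TCF3 gave the largest part in both lines, at 55.8% to 60.3% of their sum in the NB4 controls and 60.4% to 61.7% in the Kasumi-1 controls. TCF4 gave 0.739% to 1.25% in the NB4 controls and at most 0.0309% in the Kasumi-1 controls.

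Summed ID FPKM divided by summed E protein FPKM, a measure of transcripts and not of protein, was 0.385, 0.472 and 0.365 in the NB4 controls and 0.810, 1.06 and 0.482 in NB4 with OGP46. It was 1.34, 1.41 and 1.42 in the Kasumi-1 controls and 1.86, 1.95 and 2.11 in Kasumi-1 with OGP46. No 2 groups overlapped, although the lowest OGP46 sample of NB4 lay just above the highest control. Because both sums come from the same sample, a common scaling of the sample does not change the ratio. The mean sum of the E protein FPKM was 14.4 ± 0.252 and 16.5 ± 0.651 in NB4 without and with OGP46, and 27.6 ± 0.866 and 27.4 ± 0.681 in Kasumi-1 (SD, n = 3). The mean sum of the ID FPKM was 5.87 ± 0.747 and 12.8 ± 4.64 in NB4, and 38.4 ± 2.45 and 54.2 ± 4.86 in Kasumi-1 (SD, n = 3).

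**Figure D2:**
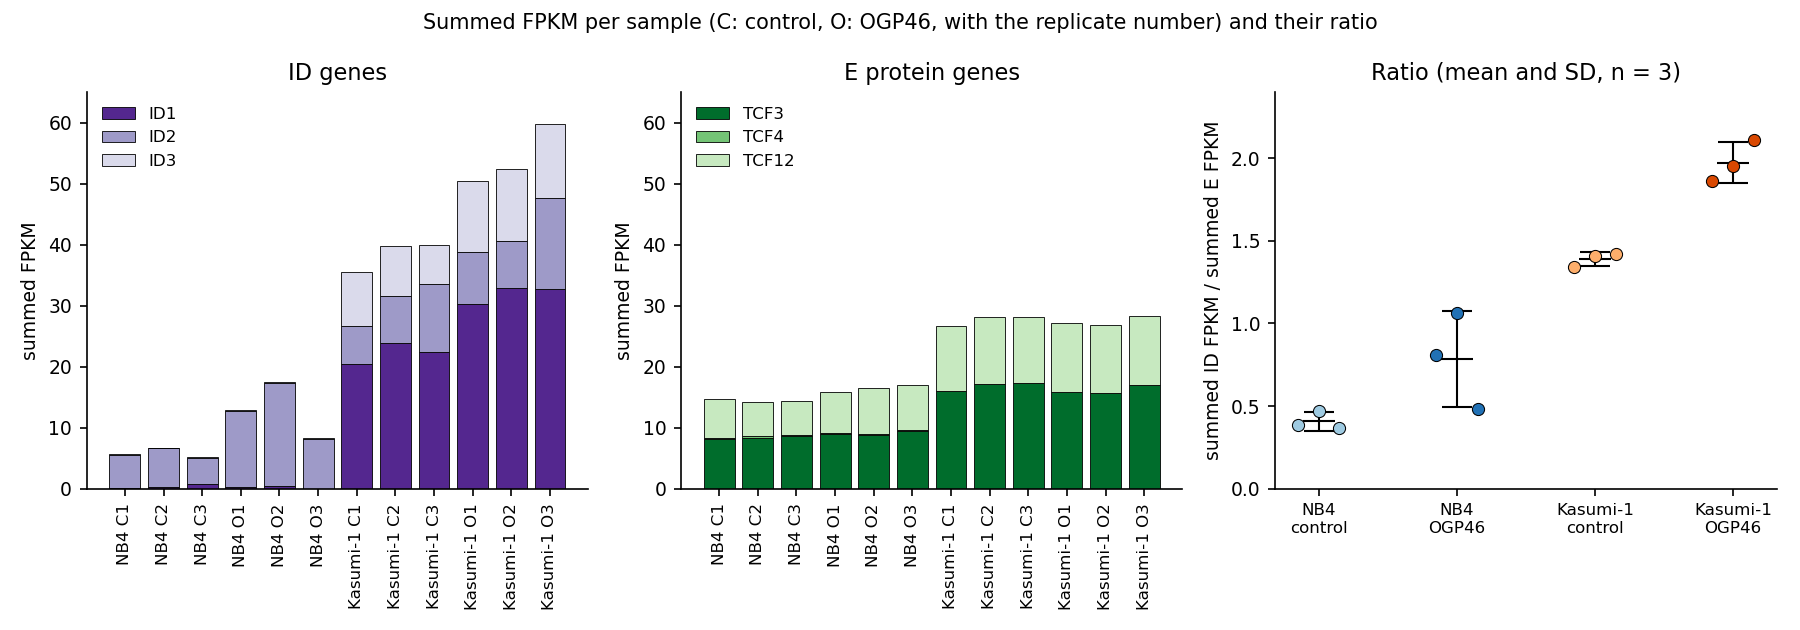
Stacked bars give the FPKM of the ID genes (left) and of the E protein genes (middle) in each sample, and points give their ratio with mean and SD (right, n = 3). The ratio lies at 0.365 to 0.472 in the NB4 controls and at 1.86 to 2.11 in Kasumi-1 with OGP46.

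The first comparison asked which of the 6 genes changed with OGP46 in NB4. It was made on log2(FPKM + 0.1) by limma, a linear model with a shared estimate of the spread, and a gene was called at a Benjamini-Hochberg adjusted p below 0.05 over all genes tested and a log2 change of at least 0.58. Of the 6, ID2 showed the largest increase, 2.34-fold by mean FPKM, and higher values in 3 of 3 same-numbered pairs (2.32, 2.64 and 1.92 times the control). Its log2 fold change was 1.17 (SE 0.26, adjusted p = 0.056), which missed the threshold in this fit. The study itself lists ID2, without a direction, in a pathway enriched among its differentially expressed genes of NB4. With the replicate number as a block, the adjusted p was 4.63e-05 (SE 0.11) and ID2 was called higher. The labels name no pairing, and the block was used because same-numbered samples correlated within each line.

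Without the block, 0 of the 5 genes tested were called by limma in NB4, against 1.45% of all 11750 genes called higher. Of the 5, 2 (ID2 and TCF12) had an unadjusted p below 0.05, as did 3422 of all 11750 genes. With the block, 1 of 5 was called higher, against 5.06% of all genes. The median log2 change of all genes was 0.18 in NB4 and -0.04 after median centring, and ID2 then stood at 0.95 (adjusted p = 0.217 without and 0.00473 with the block). With the block, 595 genes were called higher and 135 lower, and after centring 188 and 203.

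The other genes differed less in NB4. TCF12 was 1.24-fold higher by mean FPKM, with a log2 change of 0.30 (SE 0.10, adjusted p = 0.105), and 0.08 after median centring. TCF3 had a log2 change of 0.10 (SE 0.08, adjusted p = 0.417) and stood at -0.12 after centring, so its direction depended on the scaling. TCF4 had a log2 change of 0.04 (95% interval -0.52 to 0.61). ID1 had a log2 change of -0.89 (95% interval -2.31 to 0.54, adjusted p = 0.357), which was -0.38 without NB4 control 3 and -0.24 without OGP46 sample 3. ID3 was below the minimum mean of 0.1 FPKM and was not tested. The OGP46 values of ID2, TCF3 and TCF12 all lay above the control values, as they did for 32.7% of all genes tested.

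The second comparison asked the same in Kasumi-1. ID1 was 1.44-fold and ID3 1.51-fold higher by mean FPKM with OGP46, and both were higher in 3 of 3 pairs. The log2 change of ID1 was 0.52 (SE 0.07, adjusted p = 0.0397), past the p threshold but under the size of 0.58, so it was not called. That of ID3 was 0.60 (SE 0.11, adjusted p = 0.0683). When a sample was left out, the adjusted p was 0.0435 to 0.128 for ID1 and 0.0622 to 0.202 for ID3. In a joint model of all 12 samples it was 0.753 and 0.522. With the block, the adjusted p was 0.0042 for ID1, still under the size, and 0.0124 for ID3, which was called higher. After median centring, the log2 change of ID3 was 0.53, under the size.

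ID2 was 1.25-fold higher by mean FPKM in Kasumi-1, with a log2 change of 0.30 (SE 0.25, adjusted p = 0.583), or SE 0.09 and adjusted p = 0.0841 with the block. It was higher in 3 of 3 pairs, at 1.35, 1.03 and 1.35 times the control. Without the block, the value moved when a sample was left out. It was 0.0095 without OGP46 sample 3, 0.52 without control 3, 0.48 without OGP46 sample 2 and 0.13 without control 1. Each of these fits splits a pair, and sample 3 was the highest of both groups. TCF3 and TCF12 stayed close to the controls, at -0.06 (95% interval -0.20 to 0.08) and 0.07 (95% interval -0.07 to 0.20). TCF4 was below the minimum mean and was not tested. Without the block, limma called 0 of 5 genes tested, 2 of which (ID1 and ID3) had an unadjusted p below 0.05, and 0.0169% of 11835 genes were called higher. With the block, 1 of 5 was called, against 0.27% of all genes. OGP46 samples lay wholly above the controls for ID1, ID3 and TCF12, and for 17.4% of all genes tested. The median log2 change of all genes was 0.05. Of all genes, 1852 had an unadjusted p below 0.05, and ID1 ranked 10th and ID3 42nd by p.

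**Figure D3:**
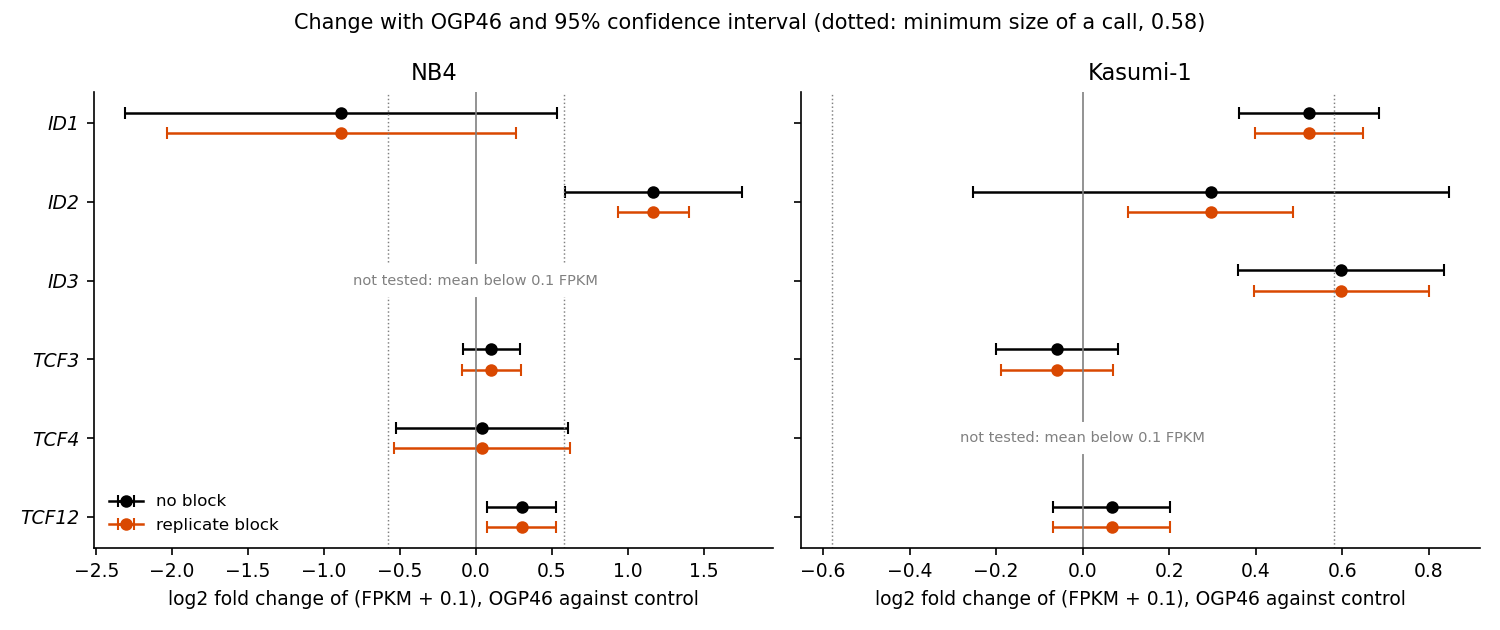
Log2 fold change of FPKM + 0.1 with OGP46 for each gene tested, with its 95% confidence interval, without (black) and with (orange) the replicate block. The panels have separate scales, and dotted lines mark the minimum size of a call. In NB4 the interval of ID2 lies above 0.58 in both fits, and in Kasumi-1 those of ID1 and ID3 lie above 0.

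The third comparison tested whether the change with OGP46 differed between the lines, as an interaction in a model of all 12 samples. For ID2, the change in NB4 exceeded that in Kasumi-1 by 0.87 on the log2 scale (SE 0.42, adjusted p = 0.462). With the block within each line it was called (SE 0.15, adjusted p = 0.0241), and after median centring with the block it was 0.72 (adjusted p = 0.065). ID1 differed by -1.41 (SE 0.69, adjusted p = 0.473) and ID3 by -0.42 (SE 0.41, adjusted p = 0.7), that is, toward a more positive change in Kasumi-1. Without NB4 control 3 these differences were -0.91 and -0.05, and without NB4 OGP46 sample 3 that of ID1 was -0.76. TCF12 differed by 0.23 (adjusted p = 0.448) and TCF3 by 0.16 (adjusted p = 0.521). By limma without the block, 0 of the 5 genes tested and 0.0% of all 12309 genes were called, while 1 of the 5 (TCF12) and 1348 of all genes had an unadjusted p below 0.05. With the block, 1 of 5 was called, against 1.4% of all genes called in that direction.

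The fourth comparison set the controls of the lines against each other. ID1 was 52.9 times as high by mean FPKM in Kasumi-1, a log2 difference of 5.61 (SE 0.37, adjusted p = 1.28e-06). ID3 differed by 5.49 (SE 0.34, adjusted p = 9.71e-07). Because both lie near 0 in NB4, these sizes depend on the pseudocount, and with a pseudocount of 1 they were 4.06 and 3.01. TCF3 differed by 0.99 (SE 0.07, adjusted p = 2.7e-06) and TCF12 by 0.87 (SE 0.09, adjusted p = 1.8e-05). ID2 differed by 0.61 (SE 0.21, adjusted p = 0.0257), with overlapping samples, and it was not called in 11 of 16 alternatives. These were TPM scaling (0.41, adjusted p = 0.122) and median centring (0.47, adjusted p = 0.0759), each also with the block, quantile normalization (adjusted p = 0.0556), the joint model (0.0779), no filter (0.0577), a pseudocount of 1 (0.54, under the size) and 3 of the fits without a sample.

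All 5 genes tested were called higher in Kasumi-1, against 29.7% of 12302 genes, and 22.7% of all genes were called lower. ID3 passed the minimum mean only through Kasumi-1, and TCF4, which was higher in NB4, was left out by that minimum. The count is therefore no measure of the members as a set. Of all 6449 calls, 56.7% were higher in Kasumi-1, and 45.4% after TPM scaling. By log2 difference, ID1 ranked 75th and ID3 89th of 12302 genes from the most increased. TCF4 was under the minimum mean here. In the fit without that minimum it was lower in Kasumi-1 by 1.29 on the log2 scale (adjusted p = 0.000188). Leaving out Kasumi-1 control 3 gave 0.39 for ID2 (adjusted p = 0.0873), and leaving out NB4 control 1 or 3 also ended its call, at 0.62 and 0.45.

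Among the NB4 samples, control 3 held the most signal of genes of the other line. Over 25 genes that were at 20 FPKM or more in the Kasumi-1 controls and under 5% of that in every NB4 sample, the median share of the Kasumi-1 level was 1.35% in NB4 control 3 and 0.129% to 0.414% in the other 5 NB4 samples. ID1 stood at 3.65% and ID3 at 2.45% of their Kasumi-1 control means in that sample, and at no more than 1.65% and 1.63% in the others. Without it, the differences between the controls were 6.12 for ID1 and 5.86 for ID3. The part of this signal in the values of ID1 and ID3 in NB4 was not tested. Over 30 genes chosen the same way for NB4, the median share was 1.7% in Kasumi-1 control 2 and 0.245% to 0.379% in the other 5 Kasumi-1 samples.

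None of the bHLH partner and TAL1 complex genes was called with OGP46. Of 4 partner genes tested in NB4 and 3 in Kasumi-1, 0 were called by limma without or with the block, and 0 had an unadjusted p below 0.05 without it. Among 12 bHLH partner genes, 5 were tested between the controls, 4 of which were near or at 0 in 1 of the lines and passed the minimum through the other, so their median is not given. TAL1 and LYL1, related factors of blood progenitors, were called higher in Kasumi-1. TAL1 was at 2.41 ± 0.38 FPKM there and at 0.0567 ± 0.0212 FPKM in the NB4 controls, and LYL1 at 42.0 ± 2.94 and 12.0 ± 0.968 FPKM (SD, n = 3). TWIST1, ASCL2 and MSC, bHLH factors better known outside blood progenitors, were called lower, with ASCL2 at 2.13 ± 0.114 FPKM in NB4 and listed at 0 in the 3 Kasumi-1 controls.

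Of the 8 genes of the TAL1 complex, 7 were tested between the controls. GATA1 passed the minimum mean only through NB4, so its call is no measure of the list, and the median is not given. With OGP46, limma called 0 of 7 tested in NB4 and 0 of 6 in Kasumi-1, of which 3 and 2 had an unadjusted p below 0.05. Of all genes, 3422 of 11750 in NB4 and 1852 of 11835 in Kasumi-1 had such a p. The bridging protein genes LMO2 and LDB1 and the erythroid factor gene KLF1 were called higher in Kasumi-1, and GATA1, another erythroid factor gene, was called lower, 3 and 1 of 7 against 29.7% and 22.7% of all genes. LMO2 was at 27.2 ± 0.971 FPKM in the Kasumi-1 controls and 9.87 ± 0.199 FPKM in the NB4 controls (SD, n = 3). LDB1 was at 31.9 ± 3.69 and 18.0 ± 0.987 FPKM.

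Of 9 coregulators that E proteins bind, 1 was called higher and 3 lower in the Kasumi-1 controls, against 29.7% and 22.7% of all genes. The higher one, RUNX1T1, passed the minimum mean only through Kasumi-1, so its call is no measure of the list, and the median is not given. RUNX1T1, which encodes ETO, was at 8.52 ± 0.183 FPKM in Kasumi-1 (SD, n = 3) and at 0 to 0.0762 FPKM in NB4. In Kasumi-1 its reads can come from the AML1-ETO fusion transcript as well as from RUNX1T1, and gene-level FPKM cannot tell them apart. CBFA2T3, an ETO relative, had the opposite order, with 2.94 ± 0.0929 FPKM in Kasumi-1 and 11.9 ± 1.01 FPKM in NB4. The corepressor gene NCOR1 and the acetyltransferase gene CREBBP were also lower in Kasumi-1. With OGP46, limma called 0 of 8 tested in NB4 and 0 of 9 in Kasumi-1, of which 5 and 3 had an unadjusted p below 0.05. Such a p was found for 3422 of all 11750 genes in NB4 and 1852 of all 11835 in Kasumi-1.

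Of 19 genes known to be activated by E proteins, 8 were tested in NB4. CDKN1A, which encodes the cell cycle inhibitor p21, was called higher with OGP46, at 4.48 ± 1.53 against 1.54 ± 0.335 FPKM (log2 change 1.45, adjusted p = 0.0364). IGLL1, a surrogate light chain gene, was called lower, at 0.0468 ± 0.0205 against 0.29 ± 0.0478 FPKM (log2 change -1.41, adjusted p = 0.0376). Of all genes, 1.45% were called higher and 0.111% lower. Without the block, limma called 0 of all genes under TPM scaling, median centring or quantile normalization (1947, 1895 and 1764 at an unadjusted p below 0.05), so neither call held there. Both held with the block, also with median centring. The median of the list was 0.06, below the 0.18 of all genes. With the block, CDKN1C, which encodes the related inhibitor p57, was also called higher, with a log2 change of 0.63 (adjusted p = 0.0173), but not after centring (0.41).

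In Kasumi-1, 9 genes of this list were tested and limma called 0 without the block, with 1 (IGLL1) at an unadjusted p below 0.05. IGLL1 had a log2 change of -1.07 (adjusted p = 0.117), and with the block it was called lower (adjusted p = 0.0038). Its mean FPKM there was 3.67 ± 1.40 with OGP46 and 7.52 ± 1.81 without (SD, n = 3). CDKN1A was at 2.92 ± 0.368 against 2.65 ± 0.678 FPKM, and its change differed between the lines with the block (1.29, adjusted p = 0.00958), as for ID2.

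Between the controls, 6 of 9 tested targets were called higher and 1 lower in Kasumi-1, against 29.7% and 22.7% of all genes. The median is not given, because the list holds a gene that passed the minimum mean only through Kasumi-1. The higher ones were IGLL1, FOXO1, GFI1, CDKN1A, CDKN1C and that gene, PAX5. GFI1, a repressor gene of granulocyte precursors, had the highest level of them, with 64.8 ± 2.97 FPKM in Kasumi-1 and 19.0 ± 2.97 FPKM in NB4 (SD, n = 3). IRF8, a monocyte and dendritic cell factor, was the lower one, with 0.897 ± 0.668 FPKM in Kasumi-1 and 22.4 ± 1.94 FPKM in NB4.

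ID1 to ID3 are known targets of BMP signals, which pass from receptors to SMAD1, SMAD5 and SMAD9. Of 13 BMP and SMAD genes, 10 were tested between the controls, and 5 were called higher and 2 lower in Kasumi-1, against 29.7% and 22.7% of all genes. SMAD1, BMP4 and ACVR1 passed the minimum mean only through Kasumi-1 and BMP2 only through NB4. These counts are therefore no measure of the list, and its median is not given. SMAD1, a BMP-responsive SMAD, was at 5.97 ± 0.116 FPKM in Kasumi-1 (SD, n = 3) and 0 to 0.101 FPKM in NB4 (log2 difference 5.59, adjusted p = 1.96e-07). As for ID1 and ID3, this size depends on the pseudocount, and a relation between these genes was not tested. SMAD6, an inhibitory SMAD that BMP signals induce, was at 3.43 ± 0.222 and 0.314 ± 0.115 FPKM, and the ligand gene BMP4 at 1.30 ± 0.202 FPKM in Kasumi-1 and 0 to 0.0182 FPKM in NB4. SMAD7 and ACVR1 were the others called higher.

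The receptor gene BMPR1A went the other way, at 0.161 ± 0.0378 FPKM in Kasumi-1 and 3.45 ± 0.181 FPKM in NB4. So did the ligand gene BMP2, which was listed at 0 in the 3 Kasumi-1 controls and at 2.31 ± 0.356 FPKM in NB4. With OGP46 in NB4, BMP2 was the 1 gene called of 7 tested, at 1.25 ± 0.219 FPKM (log2 change -0.84, adjusted p = 0.0467), with the same dependence on scaling as CDKN1A and IGLL1. In Kasumi-1, limma called 0 of 11, with 1 at an unadjusted p below 0.05, and the median was 0.21 against 0.05 for all genes. SMAD1 there was at 6.93 ± 0.331 FPKM with OGP46 (log2 change 0.21, adjusted p = 0.209).

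The genes for ID protein turnover were not called in NB4, in Kasumi-1 or between the controls. They were USP1, which encodes an enzyme that removes ubiquitin from ID proteins, its partner WDR48, and FZR1 and ANAPC10 of the anaphase-promoting complex, and limma called 0 of 4. With OGP46, 0 of them had an unadjusted p below 0.05 in either line, and between the controls USP1 and WDR48 did, with log2 differences of 0.30 and 0.45. USP1 was at 20.8 ± 1.10 FPKM in the NB4 controls and 25.6 ± 1.32 FPKM in the Kasumi-1 controls (SD, n = 3). Of the 3 RB family genes that ID2 can bind, limma called 0 with OGP46, although 2 had an unadjusted p below 0.05 in each line. So did 3422 of all 11750 genes in NB4 and 1852 of all 11835 in Kasumi-1. The medians were 0.29 in NB4 and 0.17 in Kasumi-1, against 0.18 and 0.05 for all genes. RB1 had log2 changes of 0.50 (adjusted p = 0.136) and 0.24 (adjusted p = 0.142). Between the controls, 0 of the 3 were called without or with the block, and RBL1 was called lower with block and median centring.

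**Figure D4:**
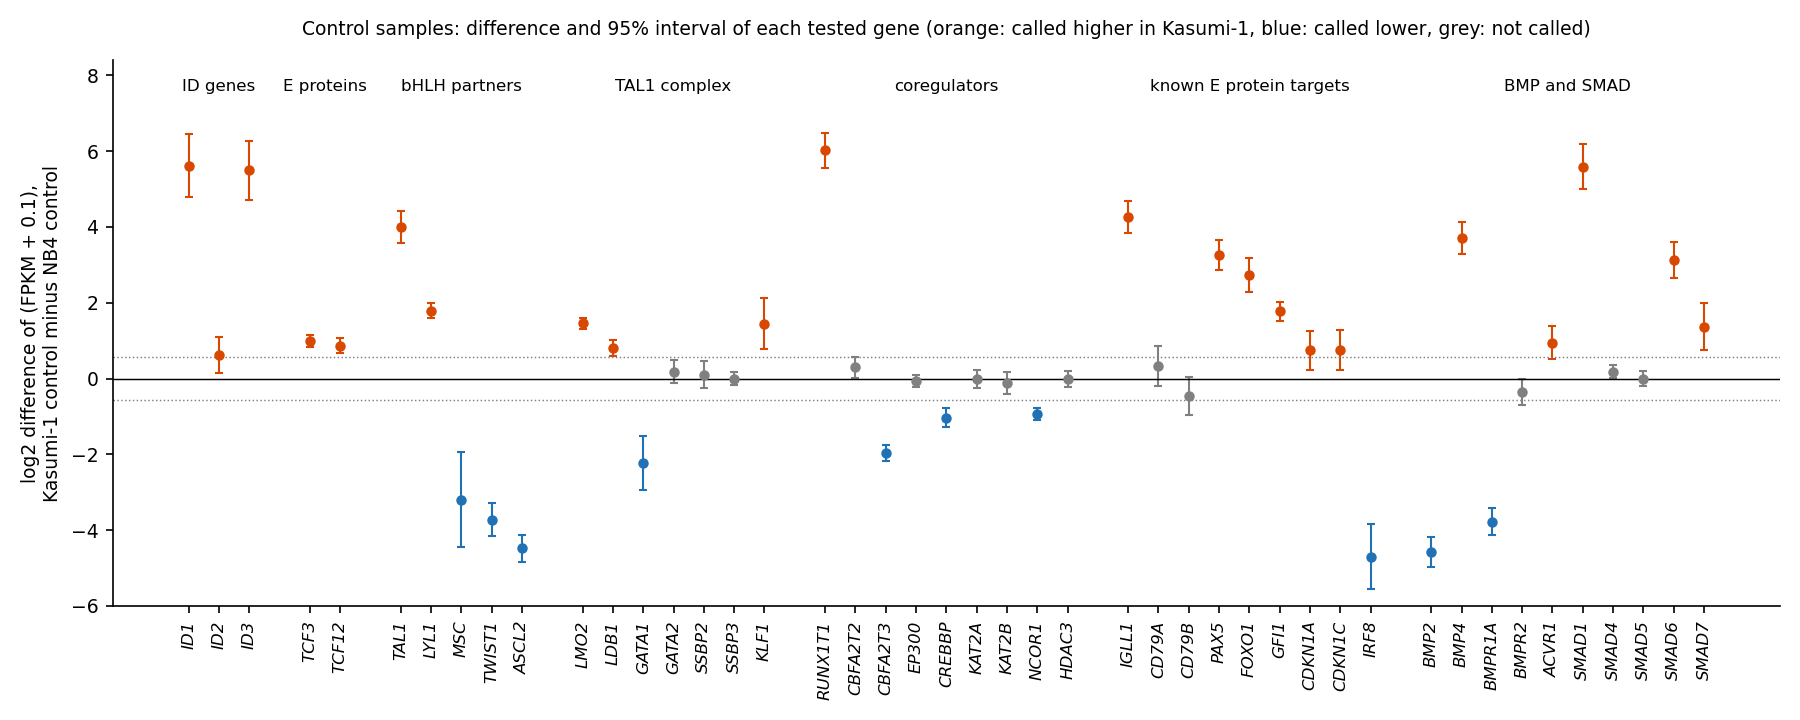
Log2 difference of FPKM + 0.1 between the Kasumi-1 and NB4 controls for each gene tested of 7 groups, with 95% intervals. Orange points were called higher in Kasumi-1, blue points lower and grey points not called. ID1 (5.61), ID3 (5.49), RUNX1T1 (6.02) and SMAD1 (5.59) are the highest points. These genes lie near 0 in NB4, so the sizes depend on the pseudocount.

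Among the marker lists, some moved with OGP46 in NB4 beside ID2 when the block was used. With the block, 5.06% of all genes were called higher and 1.15% lower. The monocyte marker CD14 had a log2 change of 1.67 (adjusted p = 0.000494), from 0.147 ± 0.102 to 0.708 ± 0.396 FPKM. CSF1R, another, had one of 0.60 (adjusted p = 0.00921). The most abundant monocyte marker, LYZ, was not called, at 314 ± 52.3 FPKM with OGP46 and 318 ± 63.9 FPKM in the controls. The T cell marker CD3D and the endothelial marker PECAM1 were called higher (0.72 and 0.78), and CD34 lower (-1.42, with NB4 controls at 0.0601 to 1.31 FPKM). After median centring with the block, CD14 was still called, and CSF1R, CD3D, PECAM1 and CD34 were not. PRTN3, CTSG, ELANE and AZU1 were called lower, 4 of 5 granule genes, also after centring. The OGP46 and control samples of all 4 overlapped. PRTN3 was at 44.3 to 212 against 146 to 449 FPKM, and ELANE at 0.321 to 1.39 against 0.504 to 14.5 FPKM. In Kasumi-1, TRH was called lower without and with the block, at 20.7 ± 1.88 against 36.9 ± 1.76 FPKM (SD, n = 3). The 5 granule genes had a median log2 change of -0.39 there, against 0.05 for all genes. Without and with the block, limma called 0 of them, with 3 and 4 at an unadjusted p below 0.05. Of all 11835 genes, 1852 and 2711 had such a p. With block and centring, PRTN3 was called lower in Kasumi-1. Between the controls, LYZ and CD3D were called lower in Kasumi-1. The summed FPKM of the 3 monocyte markers was 272 to 394 in the controls and 264 to 371 with OGP46. Their part in the change of ID2 was not tested, and in bulk RNA a shift in the make-up of the cells and a change of RNA per cell cannot be told apart.

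The genes whose pattern was most like that of each member were found by Pearson's r of log2(FPKM + 0.1) over the 12 samples, among 9943 genes whose mean reached 1 FPKM. For ID1 they were ZC4H2 (r = 0.993), ESAM (0.992) and JAM3 (0.991). For ID3 they were P2RY1, ACTR1B and SLC35D2, each with r = 0.996. For TCF3 they were CELSR3, HOMER2 and SMARCD2 (0.997 each), and for TCF12 PAPOLA (0.994), TMEM206 (0.993) and PCNX4 (0.993). As the 6 samples of a line lie together for these genes, such values mostly restate the distance between the lines.

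ID2 had no such close companions. The highest r was 0.888 for ZWINT, 0.886 for NUMA1 and 0.858 for PPIL2. Between the members, r was 0.979 for ID1 with ID3 and 0.958 for TCF3 with TCF12, and 0.128 and 0.156 for ID2 with ID1 and ID3. TCF4 was below the minimum for this comparison.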

How the data were processed

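The authors isolated RNA with Trizol, made stranded poly(A) mRNA libraries and deposited 1 FPKM value per gene symbol and sample. The submitters' processing notes name Trimmomatic, HISAT2, Cufflinks, HTSeq and hg38, with no versions given in the sources used here. In each file, 27 symbols turned into dates were left out. Among low genes, the most common ratio between samples put relative depth at 0.841 to 1.06 times that of NB4 control 1. Only 2.69% of these genes shared that ratio for NB4 control 2 (0.841) and 2.93% for Kasumi-1 control 1 (1.06), so both ends are uncertain. Absolute depth is unknown, and 632 values above 0 and below 1e-04 show that fragments were partly shared out by estimation.

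From the deposited FPKM, log2(FPKM + 0.1) was tested, two-sided, with limma (version 3.58.1, under R version 4.3.3), using a mean-variance trend, for genes whose mean over the compared samples reached 0.1 FPKM. The thresholds were those of the study's methods. The method was tested on simulated data. The members and gene lists were chosen with earlier results of these data known. Named were the 6 members, every list gene called in a comparison without or with the block (up to 6 a list by p), ID4 and TCF7L2, and the 3 most alike genes of each member. A gene of the coregulator list is not reported here.

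The numbers 1 to 3 were taken as pairs within a line because deviations of same-numbered samples correlated over 11750 genes in NB4 (r = 0.355, 0.622 and 0.197) and over 11835 in Kasumi-1 (0.218, 0.157 and 0.395). The highest r with another number was 0.224, -0.34 and 0.175 in NB4 and 0.101, 0.027 and -0.217 in Kasumi-1. Neither the labels nor the study's methods name this pairing, so results with the block depend on it. Motifs and tables were made in Python version 3.11.15. Alternatives were another pseudocount, other filters, TPM scaling, median centring, quantile normalization, a joint model, the replicate block and leaving out each sample.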

Additional observations from a re-analysis of the deposited data

Results flagged for a closer look

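The change of ID2 with OGP46 was larger in NB4 than in Kasumi-1 by 0.87 on the log2 scale, and it drew attention because the test of this difference passed with the replicate block (limma, adjusted p = 0.0241) but not without it (adjusted p = 0.462). TCF3 drew attention because it was higher with OGP46 in 3 of 3 pairs in NB4 and lower in 3 of 3 pairs in Kasumi-1. The difference of its changes was 0.16 on the log2 scale (limma, adjusted p = 0.521), or 0.012 after median centring.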

How the results depend on the processing

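Of the 6 genes, 0 were called in NB4 and in Kasumi-1 and for the interaction without the replicate block, and 5 between the controls. In NB4, 1 (ID2) was called with a minimum mean of 1 FPKM, in the joint model of 12 samples, and with the replicate block, alone, with median centring or with TPM scaling. Leaving out a sample gave 0 to 1, the 1 without OGP46 sample 2. In Kasumi-1, 1 (ID3) was called with a minimum mean of 1 FPKM, with TPM scaling, and with the replicate block, alone or with TPM scaling. For the interaction, 1 (ID2) was called with the replicate block alone. Between the controls, where same-numbered samples did not correlate (r = -0.049, 0.018 and -0.005), the block left the count at 5, and leaving out a sample gave 4 to 5.

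Of all genes, 183 were called in NB4. The count was 117 with a pseudocount of 1, 4 without a filter, 0 with TPM scaling, median centring or quantile normalization (1947, 1895 and 1764 genes at unadjusted p below 0.05 in limma), 480 in the joint model, 730 with the replicate block, 391 with block and centring, 450 with block and TPM scaling, and 0 to 396 without single samples. In Kasumi-1, 4 were called. The count was 2 with a pseudocount of 1, 0 without a filter and in the joint model (2068 and 1232 at unadjusted p), 24 with a minimum mean of 1 FPKM, 18 with TPM scaling and with centring, 11 with quantile normalization, 73, 93 and 99 with the replicate block alone, with centring and with TPM scaling, and 0 to 11 without single samples. For the interaction, 12 were called with a pseudocount of 1, 185, 81 and 75 with the replicate block alone, with centring and with TPM scaling, and 0 to 1 without single samples.

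In NB4, TCF3 turned to -0.023 with TPM scaling, -0.12 with centring and -0.088 with quantile normalization, and TCF4 to -0.037, -0.18 and -0.011. The block gave the same values with TPM scaling and centring. Without single samples, TCF4 ranged from -0.092 (without NB4 control 1) to 0.12, with -0.016 without OGP46 sample 3. These were the 12 reversals among 342 recomputed log2 values of the 6 genes. The causes were not tested. Without read counts, no detection limit can be set for ID1, ID3 or TCF4 near 0.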
